A study of Mus musculus with 12 samples.

Results

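Car1, Car4, Slc26a3, Slc9a3, Scnn1a, Cftr, Aqp8, Guca2a and Guca2b are 9 genes for ion and water transport in differentiated colon epithelium. They were picked by gene name for their known roles, at a time when earlier results of these data were known. Each is listed once among the 54532 genes of both deposited expression tables. The study deleted ieCtnnb1, an enhancer of the beta-catenin gene Ctnnb1 that is active in intestinal epithelium, from the germ line by CRISPR/Cas9 in mice on a C57BL/6 background. RNA-seq was run on 12 bulk libraries from adult, untreated mice, with 3 in each of 4 groups. Colon tumors came from ApcMin/+ mice and from ApcMin/+;ieCtnnb1 knockout mice, so that both tumor groups carried a mutant Apc allele. Tumors were taken from five-month-old mice. Small intestinal crypts came from wild-type and ieCtnnb1 knockout mice without the Apc mutation. Hereafter the group with the intact enhancer is called control. The study's figure legends count each group in mice and its checklist calls the replicates biological, while the sample labels do not tie a library to an animal. The deletion is constitutive and was therefore present in every cell type of the tumor or crypt sample.

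Colonocytes at the surface of the large intestine absorb salt and water and secrete bicarbonate. Carbonic anhydrases turn carbon dioxide and water into bicarbonate and protons, apical exchangers trade these ions for chloride and sodium, the epithelial sodium channel takes up sodium under the control of aldosterone, and water follows through the epithelium and its aquaporins. Guanylin and uroguanylin are peptides secreted into the gut lumen that bind guanylate cyclase C on epithelial cells, raise cyclic GMP, open the chloride channel CFTR and slow sodium uptake through the exchanger NHE3. Expression of many of these genes rises as cells leave the crypt, and it is often low in colon tumors.

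Levels are given as FPKM, nominally the fragments of a gene per kilobase of transcript and per-million mapped fragments, as deposited. FPKM times gene length in kilobases summed to 981830, 979170 and 979546 in control tumors 1, 2 and 3. In knockout tumors 1, 2 and 3 the sums were 1003137, 1000033 and 1030139, each above every control. A fit with libraries set to the same total is among the alternatives. Each library held between 14457896 and 16156712 fragments on genes, recovered from the FPKM steps. In tumors, a member's value rested on between 101 fragments, for Aqp8 in control library 1, and 12621 fragments, for Slc9a3 in the same library. The tables for tumors and crypts were normalized separately, so levels were tested only within a table.

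The targeted gene and the tissue labels were checked before the members. Ctnnb1 was at 299, 363 and 358 FPKM in control tumors 1, 2 and 3 and at 279, 248 and 250 FPKM in knockout tumors 1, 2 and 3. In crypts it was at 121, 134 and 123 FPKM in controls and at 102, 104 and 105 FPKM in knockouts, so that knockout libraries lay below every control in both tissues. Apc transcripts were at 11.2, 12.4 and 12.6 FPKM in control tumors and at 10.1, 12.8 and 9.06 FPKM in knockout tumors, which overlapped. The distal colon gene Hoxb13 was at 70.1 to 128 FPKM in the 6 tumors, whereas the small intestinal sucrase gene Sis did not exceed 0.043 FPKM there; no crypt library had a fragment of Hoxb13. Tumor and crypt libraries therefore carried markers of the gut region on their labels.

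The tumor libraries mixed sexes. Xist, which is transcribed from the inactive X chromosome of females, was at 113.9 FPKM in control tumor 3 and 61.4 FPKM in knockout tumor 3, and did not exceed 0.0623 FPKM in the other 4 tumors. The Y-linked gene Ddx3y had the opposite pattern, with at most 0.0247 FPKM in these 2 libraries and 8.65 to 12.9 FPKM in the other 4. In crypts Xist was near 0 and Ddx3y was expressed in all 6 libraries. Each tumor group thus held 1 female and 2 male libraries, and sex was balanced between the genotypes. Alternatives with a term for sex and with the male tumors alone were added after these values were seen.

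Control crypt libraries 1 and 2 stood apart. The stomach gene Gkn1 was at 7.08 and 8.27 FPKM in these libraries and at 0 in control crypt library 3 and in all 3 knockout crypts. The summed level of 8 stomach genes was 41.5 and 38.9 FPKM in control crypts 1 and 2, and 2.44, 2.52, 2.80 and 2.04 FPKM in control crypt 3 and knockout crypts 1, 2 and 3. Control crypt 3 stood apart in another way. Its summed level of 5 Paneth cell genes was 48270.4 FPKM, against 16862 and 24725 FPKM in control crypts 1 and 2 and at most 18470 FPKM in knockout crypts. Its fatty acid binding protein transcript Fabp6 was at 2619 FPKM, against 135 and 991 FPKM in the other controls. Crypt results below are given with all libraries and, for some of them, without control crypts 1 and 2. This choice was made after these values were seen. Results without control crypts 1 and 2 rest on control crypt 3 as the only control.

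Knockout and control were compared by limma on log2(FPKM + 0.5), in genes with a mean of at least 0.5 FPKM in the 6 libraries of a table, with Benjamini-Hochberg adjustment over every gene tested. A log2 fold change here is the knockout mean minus the control mean on that scale; the added 0.5 draws genes near that level toward 0. In tumors 0 of 16743 genes had an adjusted p under 0.05 (0% of genes; lowest adjusted p 0.269), with 1417 higher and 1004 lower genes at an unadjusted p under 0.05. The count of adjusted p under 0.05 was also 0 with voom on the recovered fragments, and it was 1 without the variance trend. The split of genes between the directions depended on scaling. It was 1075 higher and 1346 lower with libraries set to the same total, 1116 and 1282 with quantile normalization, 1084 and 1522 with voom, and 245 and 4710 when scaled to pan-epithelial genes. With a term for sex and with the male tumors alone the count was 0. No member passed the adjusted threshold, and every member value below is a measurement that did not survive correction over all genes.

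All 9 members passed the level filter in tumors. In control tumors the order of the mean levels was Slc9a3, Car1, Guca2a, Guca2b, Scnn1a, Car4, Aqp8, Cftr and Slc26a3, from 117 down to 3.27 FPKM. Car1 and Guca2a overlapped in this order, as did each neighboring pair from Scnn1a down to Slc26a3. By mean level Car1 and Guca2a stood above Slc9a3 in knockout tumors, but in knockout tumor 1 Car1 was below Slc9a3, and the ranges of Car1 and Guca2a overlapped. The other 6 members kept their places by mean, with overlap between all neighbors from Guca2b down except Car4 and Aqp8. The median log2 fold change of the 9 members was 0.42, against 0.01 over all genes tested. Of the members, 8 were higher and 1, Slc9a3, was lower. At an unadjusted p under 0.05 there were 4 higher members, where 8.46% of all genes tested met that rule, and 1 lower member; 14.5% of all genes met it in either direction. With a term for sex 5 members were under that threshold, and of all 16743 genes 1331 were higher and 957 lower. With the male tumors alone 3 members were, Guca2a, Guca2b and Slc9a3, and of all 16777 genes 714 were higher and 504 lower. The knockout libraries all lay above the controls for the same 4 members (11.4% of genes tested) and all below for 1 (10.6%).

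**Figure D1:**
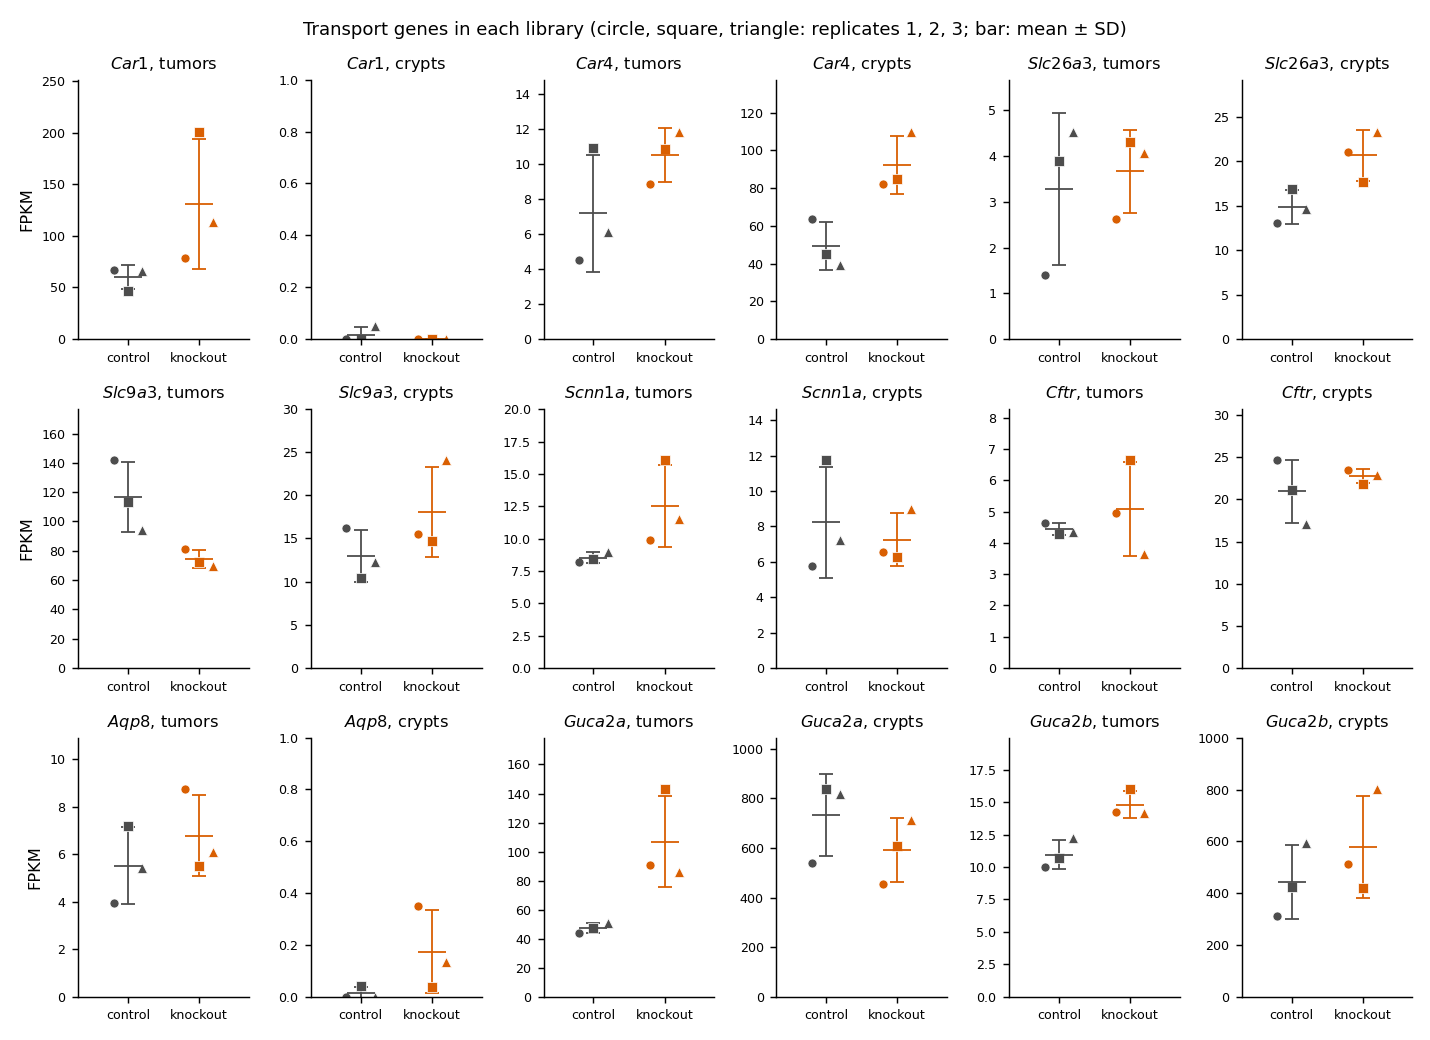
FPKM of the 9 transport genes in each library, with tumors and crypts on separate axes that start at 0. Circles, squares and triangles are replicates 1, 2 and 3 of the control (gray) and knockout (orange) group, and the horizontal bar with whiskers is the mean ± SD (n = 3); in tumors, knockout points of Car1, Scnn1a, Guca2a and Guca2b all lie above the controls, those of Slc9a3 all below, and Car1 and Aqp8 lie near 0 in crypts.

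Guca2a, which encodes guanylin, had the smallest unadjusted p of the members in tumors. It was at 43.8, 47.1 and 50.5 FPKM in control tumors 1, 2 and 3 and at 91.0, 143 and 86.3 FPKM in knockout tumors 1, 2 and 3. The controls lay close together, every knockout library was well above them, and knockout tumor 2 was the highest. Means were 47.2 ± 3.38 and 107 ± 31.4 FPKM (SD, n = 3), a ratio of 2.26, and the log2 fold change was 1.13 (SE 0.20, 95% interval 0.66 to 1.60; unadjusted p = 0.000826, adjusted p = 0.269 by limma). The exact permutation p was 0.1, the smallest that 3 against 3 libraries allow. Without knockout tumor 2 the log2 fold change was 0.91.

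Guca2b, which encodes uroguanylin, was lower in level and moved less. Its values were 10.01, 10.7 and 12.2 FPKM in control tumors and 14.2, 15.98 and 14.2 FPKM in knockout tumors. The groups did not overlap, and the spread within each was small, with means of 10.96 ± 1.14 and 14.8 ± 1.04 FPKM (SD, n = 3). The log2 fold change was 0.42 (SE 0.10; unadjusted p = 0.00587, adjusted p = 0.269 by limma).

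The guanylin and uroguanylin genes are neighbors on mouse chromosome 4, on opposite strands. Guca2a (ENSMUSG00000023247) lies at chr4:119637704-119639471 on the plus strand and Guca2b (ENSMUSG00000032978) at chr4:119656607-119658954 on the minus strand of mm10. Because both were higher in knockout tumors, the 250 bases before their RefSeq starts are shown, with those of Slc9a3, the member that was lower. RefSeq sequences (GRCm38.p6) were found for 7 of the 9 members, all but Car1 and Scnn1a. 3 short motifs of intestinal transcription factors were searched on both strands: CTTTGA for TCF/LEF, the DNA partners of beta-catenin, GTTAAT for HNF1, and TTTATNG for CDX, where N is any base. They were found in 13.8%, 6.43% and 9.81% of the same window in 32851 promoters. Capitals mark matches; each sequence reads 5′ to 3′ on the strand of its gene.
Guca2a, chr4:119637482-119637731, plus strand: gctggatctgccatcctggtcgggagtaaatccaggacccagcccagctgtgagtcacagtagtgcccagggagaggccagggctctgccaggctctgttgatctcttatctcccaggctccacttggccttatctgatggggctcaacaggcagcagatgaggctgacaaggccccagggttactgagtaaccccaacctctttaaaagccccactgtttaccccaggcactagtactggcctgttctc
Guca2b, chr4:119658946-119659195, minus strand: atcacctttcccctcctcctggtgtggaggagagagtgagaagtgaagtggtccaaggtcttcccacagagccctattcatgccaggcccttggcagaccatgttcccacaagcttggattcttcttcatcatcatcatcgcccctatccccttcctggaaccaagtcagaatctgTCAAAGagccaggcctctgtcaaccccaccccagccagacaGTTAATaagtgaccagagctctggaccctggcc
Slc9a3, chr13:74121163-74121412, plus strand: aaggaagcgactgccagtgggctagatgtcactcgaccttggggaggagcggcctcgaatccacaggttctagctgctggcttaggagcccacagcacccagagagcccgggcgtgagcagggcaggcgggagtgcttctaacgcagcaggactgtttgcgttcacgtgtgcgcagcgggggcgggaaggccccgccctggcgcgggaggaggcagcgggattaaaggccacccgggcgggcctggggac
The window of Guca2b held the TCF/LEF letters 74 to 69 bases and the HNF1 letters 33 to 28 bases before the start. The windows of Guca2a and Slc9a3 held none of these letters. Among the 7 members, Slc26a3 had the other matches, with the TCF/LEF letters once and the HNF1 letters at 94 and 84 bases before its start. A match is a description of the letters, and binding was not measured in these tables.

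Car1 encodes a carbonic anhydrase of the cytosol that is abundant in colonocytes and is also found in red blood cells. It was at 67.4, 46.7 and 65.9 FPKM in control tumors 1, 2 and 3 and at 78.3, 201 and 114 FPKM in knockout tumors 1, 2 and 3. The groups did not overlap, but knockout tumor 1 was only a little above the highest control, and knockout tumor 2 was far above the rest. The log2 fold change was 1.03 (SE 0.34, 95% interval 0.22 to 1.84; unadjusted p = 0.0202, adjusted p = 0.303 by limma), and 0.67 without knockout tumor 2. Without control tumor 2 the unadjusted p of Car1 by limma was 0.0633, and with quantile normalization it was 0.0523. A list of 5 genes of red blood cells was measured beside Car1. Their most abundant transcript, the beta-globin Hbb-bs, was at 164, 186 and 134 FPKM in control tumors and at 326, 30.4 and 580 FPKM in knockout tumors. Knockout tumor 2, the library with the highest Car1, had the lowest Hbb-bs of the 6. Knockout tumors 1 and 3 lay above every control for both Car1 and Hbb-bs. The part of red blood cells in the Car1 values was not tested.

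Car4, a carbonic anhydrase anchored in the apical membrane, was at 4.49, 10.9 and 6.09 FPKM in control tumors and at 8.85, 10.8 and 11.8 FPKM in knockout tumors. Control tumor 2 lay within the knockout range, and the log2 fold change of 0.60 (SE 0.30, 95% interval −0.11 to 1.31; adjusted p = 0.397 by limma) did not exceed the spread between libraries. Without control tumor 2 it was 0.93 (unadjusted p = 0.0025 by limma), and without control tumor 1 it was 0.34. Slc26a3, the chloride and bicarbonate exchanger DRA of the colon surface, was the lowest member, at 1.40 to 4.54 FPKM in controls and 2.63 to 4.30 FPKM in knockouts. Its log2 fold change of 0.24 (SE 0.39) turned to −0.20 without control tumor 1, so no direction can be given.

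Slc9a3 encodes NHE3, the apical exchanger that takes up sodium in return for protons, and it was the member with the highest level in control tumors. It was at 142, 114 and 94.3 FPKM in control tumors 1, 2 and 3 and at 81.2, 72.4 and 69.8 FPKM in knockout tumors 1, 2 and 3. Every knockout library was below every control, and the knockout libraries lay closer together than the controls. Means were 117 ± 23.8 and 74.5 ± 5.96 FPKM (SD, n = 3), a ratio of 0.639. The log2 fold change was −0.63 (SE 0.16, unadjusted p = 0.00618, adjusted p = 0.269 by limma; exact permutation p = 0.1). Leaving out any 1 library gave values from −0.77 to −0.48.

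Scnn1a encodes the alpha subunit of the epithelial sodium channel. Its values were 8.16, 8.46 and 8.97 FPKM in control tumors and 9.93, 16.1 and 11.5 FPKM in knockout tumors. The controls were nearly equal, and each knockout library was above them, knockout tumor 2 most. The log2 fold change was 0.50 (SE 0.17; unadjusted p = 0.0241, adjusted p = 0.309 by limma), and 0.31 without knockout tumor 2. Without control tumor 1 its unadjusted p by limma was 0.0634, and without control tumor 2 it was 0.0572. The beta and gamma subunits, Scnn1b and Scnn1g, did not share the pattern of Scnn1a. Their groups overlapped, with log2 fold changes of −0.17 (SE 0.20) and −0.06 (SE 0.34).

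Cftr, the chloride and bicarbonate channel, was at 4.65, 4.29 and 4.36 FPKM in control tumors and at 4.96, 6.64 and 3.65 FPKM in knockout tumors, below and above the controls. Its log2 fold change of 0.14 (SE 0.20) was −0.05 without knockout tumor 2. Aqp8, a water channel of colonocytes, was at 3.95, 7.17 and 5.41 FPKM in controls and at 8.73, 5.52 and 6.08 FPKM in knockouts, with a log2 fold change of 0.29 (SE 0.24). The Aqp8 value was 0.09 without control tumor 1 and 0.48 without control tumor 2. When scaled to pan-epithelial genes it was 0.03. Neither the Cftr nor the Aqp8 difference exceeded the spread between libraries.

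Scaling between libraries bears on these values. When each tumor library was set to its mean log2 level of 6 pan-epithelial genes, the median log2 fold change of all genes moved from 0.01 to −0.24. Guca2a was then at 0.88 and Slc9a3 at −0.88, both still with an unadjusted p under 0.05. Of all 16743 genes, 245 were higher and 4710 lower at that threshold under this scaling. Car1 was at 0.78, Scnn1a at 0.25 and Guca2b at 0.17, all above the shifted median but no longer under that threshold, and Cftr and Slc26a3 turned to −0.11 and −0.01. The 6 pan-epithelial genes themselves were higher in every knockout tumor than in every control, by 0.15 to 0.37 on the log2 scale. Tumor pieces are bulk tissue, and more cells of a type and more RNA per cell cannot be told apart here.

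**Figure D2:**
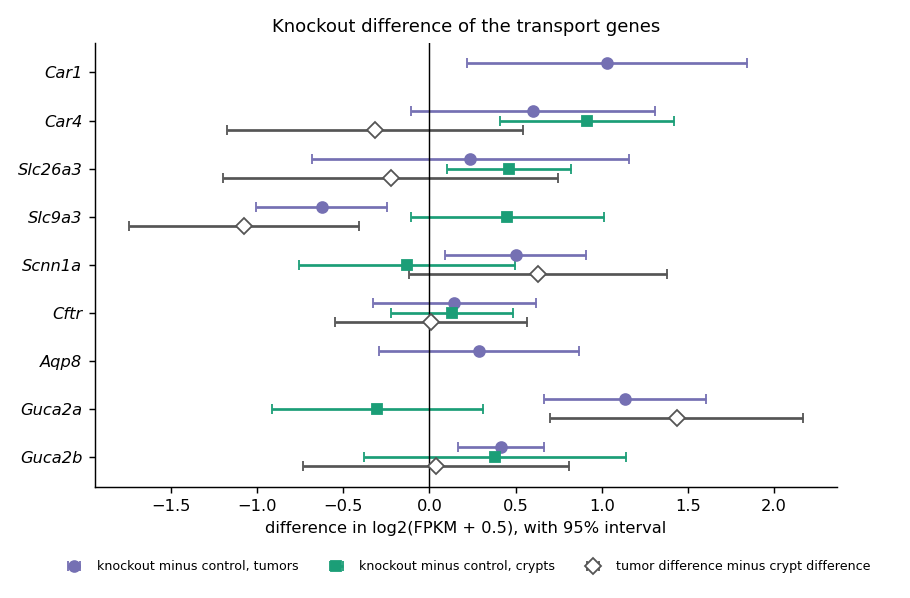
Log2 fold change of each transport gene, knockout minus control, in tumors (purple circles) and crypts (green squares), and the tumor value minus the crypt value (open diamonds), on the log2(FPKM + 0.5) scale with 95% intervals from limma. Intervals in tumors exclude 0 for Car1, Slc9a3, Scnn1a, Guca2a and Guca2b before correction over all genes; Car1 and Aqp8 were below the level filter in crypts and have no crypt value.

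The other genes of these transport pathways were read from 8 lists with 56 genes, of which 46 passed the filter in tumors. Of these, 31 were higher and 15 lower in knockout tumors, where 51.3% of all genes were higher, with a median log2 fold change of 0.17 against 0.01 over all genes. At an unadjusted p under 0.05, 6 were higher and 1 was lower, against 8.46% higher and 14.5% in either direction over all genes, and none had an adjusted p under 0.05. Over the alternatives the count of 6 ranged from 2, with scaling to pan-epithelial genes, to 10, with a replicate block. Of all 16743 genes, 245 and 1160 were higher in these 2 fits.

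Hsd11b2, the enzyme that shields the mineralocorticoid receptor from glucocorticoids in aldosterone target cells, had the smallest unadjusted p of the 46 (0.000434). It was at 31.9, 34.2 and 37.6 FPKM in control tumors and at 56.1, 66.7 and 52.8 FPKM in knockout tumors, with a log2 fold change of 0.75 (SE 0.12). The 2 groups were far apart compared with their own spread. The receptor gene Nr3c2 itself was at 0.16 (SE 0.18), and Sgk1, a kinase induced by aldosterone, at 0.48 (SE 0.31), with overlapping groups for both.

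Among carbonic anhydrases, all 5 that passed the filter were higher. Car9, which is anchored in the cell membrane and induced by low oxygen, was at 20.6, 16.3 and 12.2 FPKM in control tumors and at 25.7, 26.8 and 29.3 FPKM in knockout tumors, a log2 fold change of 0.75 (SE 0.18). Car2, the most abundant of the list, had overlapping groups and a log2 fold change of 0.42 (SE 0.24). Car9 thus had the same direction as Car1 with less spread between libraries, but without its high value in knockout tumor 2.

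The sodium hydrogen exchange list ran mostly opposite to Slc9a3, with 5 of 6 tested genes higher. Slc9a3r1, a scaffold protein that binds NHE3 at the apical membrane, was at 49.5, 45.0 and 45.7 FPKM in control tumors and at 56.6, 59.2 and 63.5 FPKM in knockout tumors, with a log2 fold change of 0.35 (SE 0.09). The second scaffold, Slc9a3r2, was at 0.27 (SE 0.10). Slc9a8, an exchanger of intracellular and apical membranes, was at −0.26 (SE 0.10) and was the only gene of the 46 that was lower at an unadjusted p under 0.05. Slc9a2, a further apical exchanger, was at 0.52 (SE 0.23), the direction opposite to Slc9a3.

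In the list of anion exchange and bicarbonate transport, 4 of 8 tested genes were higher. Slc16a1, which carries lactate and short-chain fatty acids, was at 0.35 (SE 0.10), the most abundant gene of the list, Slc4a2, at 0.12 (SE 0.08), and the chloride transporter Slc26a9 at −0.51 (SE 0.23). Of 7 tested channels and transporters of chloride secretion 4 were higher; the sodium, potassium and chloride importer Slc12a2, the most abundant of them, was at −0.09 (SE 0.20), and the goblet cell channel Best2 at 0.61 (SE 0.27). Of 4 aquaporins that passed the filter 3 were higher, with Aqp1, the most abundant, at 0.28 (SE 0.16). Gucy2c, the receptor for guanylin and uroguanylin, was at 17.1, 20.2 and 16.4 FPKM in control tumors and at 21.7, 28.3 and 19.3 FPKM in knockout tumors, with overlapping groups and a log2 fold change of 0.35 (SE 0.16). The kinase downstream of it, Prkg2, was at −0.15 (SE 0.20), and the cyclic GMP phosphodiesterase Pde5a at 0.14 (SE 0.14). Among pumps 4 of 6 were higher; the colonic proton pump Atp12a was at 0.73 (SE 0.35) with overlapping groups.

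**Figure D3:**
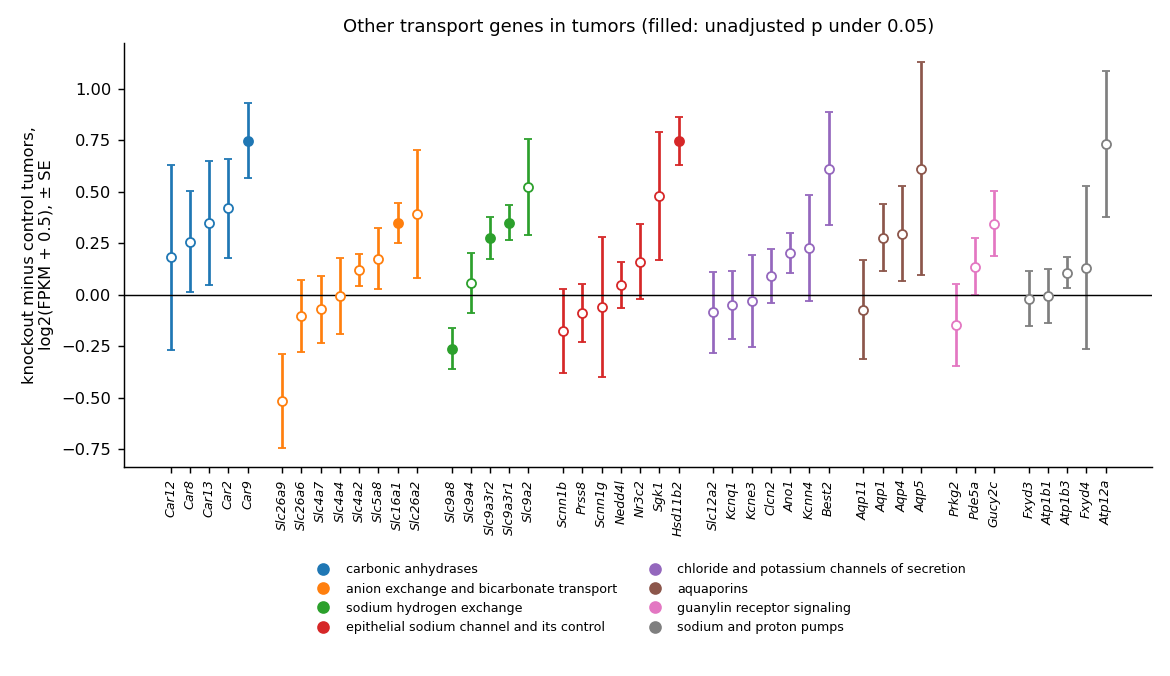
Log2 fold change of the other transport genes that passed the filter in tumors, knockout minus control on the log2(FPKM + 0.5) scale, ordered by size within each of 8 lists; whiskers are the standard error from limma. Filled points have an unadjusted p under 0.05: Car9, Slc16a1, Slc9a3r1, Slc9a3r2 and Hsd11b2 are higher and Slc9a8 is lower. Of the 46 tested genes 2 are counted in the text but not drawn.

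Markers of the cell types in tumors were measured beside the members. All 9 tested genes of differentiated surface epithelium were higher in knockout tumors, 8 of them at an unadjusted p under 0.05, with a median log2 fold change of 0.61. Krt20, a keratin of surface cells, was at 92.9, 47.8 and 49.2 FPKM in control tumors and at 112, 125 and 115 FPKM in knockout tumors. Lgals4, the most abundant of the list, was at 0.61 (SE 0.16). Tmigd1, below the filter, reached 0.248 FPKM in controls and 1.42 FPKM in knockouts. The summed level of the 10 genes was 1198, 1048 and 901 FPKM in control tumors and 1439, 1783 and 1497 FPKM in knockout tumors. Over the alternatives the count of 8 ranged from 2, with scaling to pan-epithelial genes, to 9, without control tumor 1. It was 3 with quantile normalization, 4 without control tumor 3 and 5 without knockout tumor 2. In the same order, 245, 1634, 1116, 852 and 1539 of all genes were higher at that threshold.

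All 6 goblet cell genes were higher, each at an unadjusted p under 0.05 in every alternative tried, including scaling to pan-epithelial genes. Muc2, the main secreted mucin, was at 151, 123 and 114 FPKM in control tumors and at 259, 419 and 295 FPKM in knockout tumors, a log2 fold change of 1.31 (SE 0.21). Spink4, the most abundant of the list, had means of 579 and 1150.2 FPKM. The summed level of the list was 1298, 1321 and 1344 FPKM in controls and 2484, 2949 and 2666 FPKM in knockouts. Goblet and surface markers thus moved in the same direction as Guca2a and Car1, and their part in the member values was not tested.

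Genes that mark the intestinal lineage were also higher in knockout tumors, 5 of 5, but only Cdx1 had an unadjusted p under 0.05. It was at 53.5, 69.2 and 56.4 FPKM in controls and at 88.2, 97.3 and 86.0 FPKM in knockouts. Cdx2 varied most between libraries. It was at 10.2, 2.22 and 2.01 FPKM in control tumors 1, 2 and 3 and at 7.45, 26.5 and 4.17 FPKM in knockout tumors 1, 2 and 3, with its highest level in the library that also had the highest Car1, Guca2a, Scnn1a and Cftr. All 8 Wnt targets were lower, 4 at an unadjusted p under 0.05, with Axin2 at −0.32 (SE 0.09), Rnf43 at −0.33 (SE 0.08) and the most abundant, Nkd1, at −0.30 (SE 0.12). Proliferation genes were near 0, with 2 of 6 higher and a range from −0.10 to 0.13.

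All 6 fibroblast genes were higher, 4 at an unadjusted p under 0.05. Their summed level was 345, 216 and 208 FPKM in control tumors and 346, 452 and 358 FPKM in knockout tumors, led by Col1a1 at 0.67 (SE 0.25). Of the smooth muscle genes 3 of 5 were higher, of the endothelial genes 4 of 5, of the leukocyte genes 3 of 6, of the Paneth cell genes 5 of 5 and of the erythroid genes 4 of 5. The median log2 fold changes of these lists were 0.15, 0.05, 0.01, 0.38 and 0.17, with Acta2, Eng, Lyz2, Lyz1 and Hbb-bs as their most abundant genes. At an unadjusted p under 0.05 Acta2 (0.32), Eng (0.30) and the endothelial gene Pecam1 (0.47) were higher and the leukocyte gene S100a8 (−0.98) was lower, while 0 Paneth cell and 0 erythroid genes met that threshold. All 3 tested stomach genes were lower, 2 at that threshold, the most abundant being the mucin Muc6 at −1.22 (SE 0.39), and 2 of 3 tested small intestinal enterocyte genes were higher, with Onecut2, the most abundant, at −0.75 (SE 0.28).

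**Figure D4:**
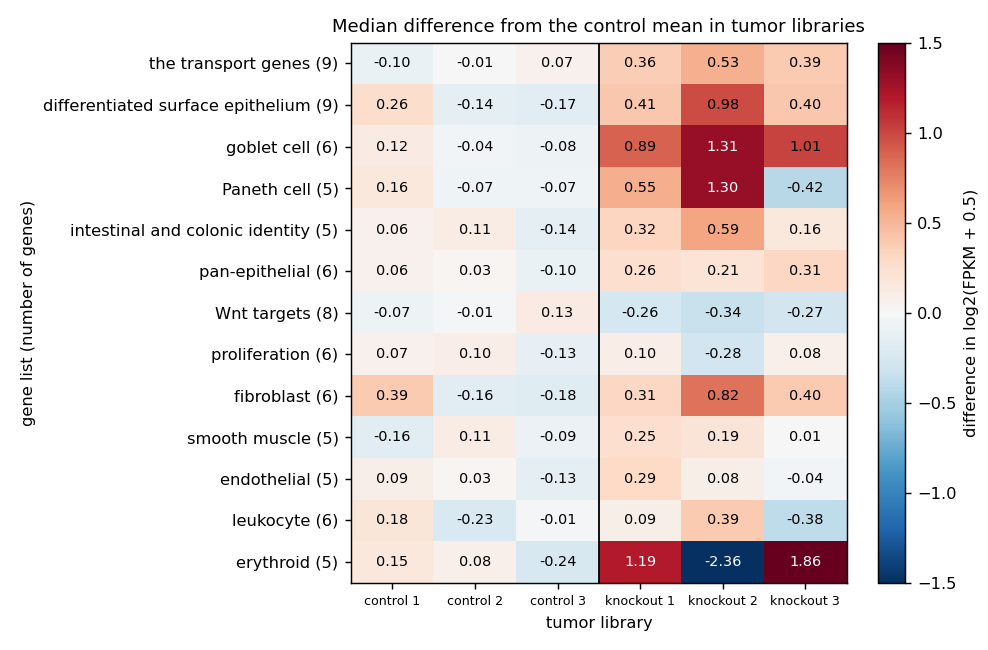
Median difference of each gene list from its control mean in the 6 tumor libraries, on the log2(FPKM + 0.5) scale; each column is a library and each line a list, with the number of genes that passed the filter, and the color scale stops at 1.5 in either direction. The goblet cell list is at 0.89, 1.31 and 1.01 in knockout tumors 1, 2 and 3 and the transport genes at 0.36, 0.53 and 0.39, while the erythroid list is at −2.36 in knockout tumor 2.

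Genes with the most similar profile over the 6 tumor libraries were sought among 9034 non-member genes with a mean of at least 5 FPKM. Likeness was the root mean square difference of log2(FPKM + 0.5) values, each gene centered on its own mean. For Guca2a the closest were Spdef, a transcription factor of goblet cells (0.105), Agr2, a protein disulfide isomerase of goblet cells (0.115), and 9030619P08Rik (0.139). For Guca2b they were the mucin gene Muc3a (0.053), Eif2ak3 (0.062) and Styk1 (0.063). For Car1 they were Il34 (0.181), Gm3336 (0.196) and Cdhr5 (0.210), which is on the surface epithelium list, and for Scnn1a they were Ms4a8a (0.070), Eno3 (0.077) and Mxd1 (0.080).

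The closest profiles to Slc9a3 were 4732490B19Rik (0.146), Fbxo10 (0.155) and the transcription factor Sox17 (0.160). Sox17 was at 39.0, 42.9 and 32.3 FPKM in control tumors and at 27.6, 20.4 and 23.7 FPKM in knockout tumors. For Cftr they were Sorl1 (0.040), L1cam (0.043) and Rnase4 (0.065). Car4 was closest to Fam174b (0.212), Spink1 (0.221) and Gm11518 (0.230), Slc26a3 to Nxpe2 (0.213), Ccnd2 (0.218) and R3hdml (0.250), and Aqp8 to Insl3 (0.160), Dynlt1-ps1 (0.163) and Tom1 (0.178). Such nearness over 6 libraries describes the values only.

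In small intestinal crypts the set of transcribed members was different. Car1 had 1 fragment in all 6 libraries together, in control crypt 3. Aqp8 had 0, 1 and 0 fragments in control crypts and 9, 1 and 3 fragments in knockout crypts, at most 0.350 FPKM. Both were below the level filter, and no fold change is given for them. The other 7 members were tested, with Guca2a and Guca2b at the top of the order in both genotypes, followed by Car4, Cftr, Slc26a3, Slc9a3 and Scnn1a.

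In crypts 0 of 14176 genes had an adjusted p under 0.05 by limma (0%; lowest adjusted p 0.728), with 494 higher and 335 lower genes at an unadjusted p under 0.05 and 0 calls with voom. Leaving out control crypt 3, which keeps both controls with stomach transcripts, gave 3 calls, the stomach genes Gkn1, Gkn2 and Pgc. Of the 7 members tested, 5 were higher and 2 lower, with a median log2 fold change of 0.38 against 0.01 over all genes. At an unadjusted p under 0.05 there were 2 higher members, Car4 and Slc26a3, where 3.48% of all genes met that rule and 5.85% did in either direction, and 0 lower, where 2.36% did. The knockout libraries lay above all controls for the same 2 members (6.79% of genes) and below for 0 (5.15%).

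Car4 was at 63.6, 45.3 and 39.0 FPKM in control crypts 1, 2 and 3 and at 82.0, 85.0 and 110 FPKM in knockout crypts 1, 2 and 3. The groups did not overlap. The log2 fold change was 0.92 (SE 0.21, 95% interval 0.41 to 1.42; unadjusted p = 0.00356, adjusted p = 0.728 by limma), and 1.22 without control crypts 1 and 2, a fit in which the single control left is assumed to vary like the knockouts. Slc26a3 was at 13.1, 16.9 and 14.6 FPKM in control crypts and at 21.01, 17.7 and 23.3 FPKM in knockout crypts. It was also higher in each knockout library, with a log2 fold change of 0.46 (SE 0.15; unadjusted p = 0.0188, adjusted p = 0.800 by limma), and 0.48 without control crypts 1 and 2. The count of 2 members was 1 without knockout crypt 1 and 1 without knockout crypt 3. Of all genes, 241 were then higher and 217 lower of 14204, and 414 higher and 336 lower of 14157. Without control crypt 1 the count of members was still 2, but Slc26a3 was no longer under the threshold (log2 fold change 0.38) and Slc9a3 was (0.62). In that fit 700 of all 14171 genes were higher and 641 lower.

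The remaining members overlapped between genotypes in crypts. Slc9a3 was at 16.3, 10.4 and 12.3 FPKM in control crypts and at 15.5, 14.7 and 24.0 FPKM in knockout crypts, with a log2 fold change of 0.45 (SE 0.24). Guca2a was at 541, 836 and 817 FPKM in controls and at 455, 609 and 712 FPKM in knockouts. Its log2 fold change of −0.30 (SE 0.26) ranged from −0.51 to −0.12 over the alternatives. Guca2b was at 313, 423 and 593 FPKM in controls and at 512, 421 and 801 FPKM in knockouts, with a log2 fold change of 0.38 (SE 0.32) that turned to −0.09 without control crypts 1 and 2. Cftr was at 17.1 to 24.6 FPKM in controls and 21.9 to 23.5 FPKM in knockouts, with a log2 fold change of 0.13 (SE 0.15). Scnn1a was at 5.74 to 11.7 and 6.26 to 8.98 FPKM, with −0.13 (SE 0.26), which ranged from −0.34 to 0.14 over the alternatives. Without control crypts 1 and 2 the log2 fold change of Cftr was 0.40. That fit has a single control and no spread among controls, so no count of members is drawn from it.

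Of 41 transport genes that passed the filter 27 were higher and 14 lower, where 52.8% of all genes were higher. Their median log2 fold change was 0.07, against 0.01 over all genes. At an unadjusted p under 0.05, 3.48% of all genes were higher and 2.36% lower. Of the 41 transport genes 0 were higher and 1, the carbonic anhydrase Car12 at −0.41 (SE 0.15), was lower at that threshold. Over the alternatives the count of higher transport genes ranged from 0 to 4. It was 4 without knockout crypt 2, where 412 of all 14199 genes were higher at that threshold. In contrast to tumors, 8 of 10 surface epithelium genes and 5 of 6 goblet cell genes had values below 0 in crypts, with medians of −0.10 and −0.29, and all 5 Paneth cell genes did, with a median of −0.69. Of these lists only the Paneth cell gene Mmp7 had an unadjusted p under 0.05. Defa24, the most abundant Paneth cell gene, overlapped between genotypes, with its highest level in control crypt 3. Of the small intestinal enterocyte genes 7 of 8 had values above 0, with 0 under that threshold; their summed level was 2990, 5338 and 10680 FPKM in control crypts and 6784, 5246 and 7877 FPKM in knockout crypts, with Fabp2 as the most abundant. Smooth muscle genes were all under the filter, and the most abundant fibroblast gene, Dcn, did not exceed 3.98 FPKM. The part of these cell types in the values of Car4 and Slc26a3, which are expressed by enterocytes, was not tested.

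The difference between the knockout effects in tumors and in crypts was tested directly, as the interaction of table and genotype over all 12 libraries. Tissue, region and Apc genotype differ together between these tables and cannot be told apart. None of 13370 genes had an adjusted p under 0.05 (0%; lowest 0.193), and at an unadjusted p under 0.05 there were 642 higher and 491 lower genes. Of the 7 members, 1 was higher in tumors than in crypts by this test (4.80% of genes) and 1 was lower (3.67%; 8.47% in either direction). Guca2a had a difference of 1.44 on the log2 scale (SE 0.33, 95% interval 0.70 to 2.17; unadjusted p = 0.00122, adjusted p = 0.437 by limma), from 1.13 in tumors against −0.30 in crypts. Slc9a3 had a difference of −1.08 (SE 0.30, 95% interval −1.75 to −0.41; unadjusted p = 0.00450, adjusted p = 0.475 by limma), from −0.63 in tumors against 0.45 in crypts. Leaving out any 1 library, also added after the data were seen, gave 1.21 to 1.64 for Guca2a and −1.25 to −0.86 for Slc9a3. Without control crypts 1 and 2 the differences were 1.62 and −1.13, and 2 genes, neither a member, had an adjusted p under 0.05 by limma.

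For the other 5 members the interval of the difference included 0. It was 0.63 for Scnn1a (−0.12 to 1.38), −0.32 for Car4 (−1.17 to 0.54), −0.22 for Slc26a3 (−1.20 to 0.75), 0.04 for Guca2b (−0.73 to 0.81) and 0.01 for Cftr (−0.55 to 0.57). Without control crypts 1 and 2 the difference was 0.51 for Guca2b, −0.26 for Cftr, −0.62 for Car4, −0.24 for Slc26a3 and 0.51 for Scnn1a. Directions of Car4, Slc26a3, Cftr and Guca2b in this test turned in at least 1 alternative. The goblet cell genes had differences of the same sign as Guca2a, such as 1.30 for Muc2 (SE 0.36) and 1.26 for Zg16 (SE 0.31).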

How the data were processed

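The authors deposited FPKM values per gene in 2 tables, 1 for tumors and 1 for crypts. The submitters' processing notes name cutadapt, HISAT2, Cufflinks 2.2.1 and DESeq2 with build mm10. The study's methods differ, naming Perl scripts for read cleaning and featureCounts for counting; which applies to the tables is not known here. Fragments per gene were recovered from the steps between FPKM values once gene length was taken out, and all were whole numbers within a tolerance of 0.05. Libraries were made with a kit whose strand setting is not given in the sources used here; of the members, Cftr shares 129 of 7765 exon bases with Gm15592 on the opposite strand, which was nearly silent.

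Knockout and control were compared within each table by limma, because the deposited unit is FPKM and not counts. The values were log2(FPKM + 0.5), genes needed a mean of at least 0.5 FPKM, and a variance trend was used. Versions were limma 3.58.1 and R 4.3.3. Single genes also had an exact two-sided permutation test, whose smallest p is 0.1. The limma fit was tested on simulated data with noise independent between libraries, which does not model stomach transcripts or sex. Of 100 genes given a log2 change of 1, 55 had an adjusted p under 0.05 in tumors and 44 in crypts. Of 100 given a log2 change of 2, 80 did in tumors and 80 in crypts. Figures used Python 3.11.15.

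Alternatives were pseudocounts of 0.1 and 1, no filter or a mean of 1 FPKM, 4 scalings, no trend, robust moderation, voom, a replicate block and leaving out each library. A term for sex, male tumors alone, crypts without 2 controls and the interaction without libraries were added after the data were seen. The members, 8 transport lists and 14 marker lists were chosen with earlier results of these data known. Named were all members, in each list up to 2 genes per direction with the smallest unadjusted p and the most abundant gene, for each member the 3 genes with the nearest tumor profile, Ctnnb1 and Apc; other genes were named after their values were seen. Not every gene under this rule is named in the text, though the list counts include all of them.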

Additional observations from a re-analysis of the deposited data

Results flagged for a closer look

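The knockout differences of Guca2a and Slc9a3 differed between tumors and crypts by the test of the difference itself, before correction over all genes. For Guca2a the log2 fold change in tumors minus that in crypts was 1.44 (unadjusted p = 0.00122, adjusted p = 0.437 by limma); its knockout values were above every control in 3 of 3 tumor libraries and overlapped the controls in crypts. For Slc9a3 the same difference was −1.08 (unadjusted p = 0.00450, adjusted p = 0.475 by limma); its knockout values were below every control in 3 of 3 tumor libraries and overlapped in crypts. Both fail the correction.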

How the results depend on the processing

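In tumors the 9 members gave 180 log2 fold changes over 20 alternatives, of which 176 kept their direction; in crypts 7 members gave 133 over 19 alternatives, of which 130 did. None had an adjusted p under 0.05, the lowest being 0.114 in tumors and 0.218 in crypts. Scaling to pan-epithelial genes gave −0.0147 for Slc26a3 and −0.108 for Cftr in tumors. It left 2 members under an unadjusted p of 0.05 in tumors in place of 5, and 1 in crypts in place of 2. At that threshold 245 of all 16743 tumor genes were then higher and 4710 lower. In crypts 185 of 14176 genes were higher and 400 lower. The scaling also moved the median of all genes. Without control crypts 1 and 2, an alternative added after the data were seen, Guca2b was at −0.09 in crypts. With the male tumors alone, also added, 3 members were under an unadjusted p of 0.05 in tumors. Of all 16777 genes in that fit 714 were higher and 504 lower at that threshold.

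Over fits without 1 library each, Slc26a3 ranged from −0.20 to 0.50 and Cftr from −0.0509 to 0.34 in tumors, and Scnn1a from −0.34 to 0.14 and Cftr from −0.0021 to 0.2531 in crypts. Members under an unadjusted p of 0.05 ranged from 4 to 5 in tumors and from 1 to 2 in crypts. The background over all genes varied between these fits. In tumors it ran from 850 higher and 546 lower of 16700 genes without control tumor 2 to 1634 and 1118 of 16694 without control tumor 1. In crypts it ran from 241 and 217 of 14204 without knockout crypt 1 to 700 and 641 of 14171 without control crypt 1. The members under that threshold also changed. Without control tumor 2 Car4 was under that threshold and Car1 and Scnn1a were not. Scnn1a was also not under it without control tumor 1. Calls ranged from 0 to 0 in tumors and from 0 to 3 in crypts. Without the variance trend there was 1 call in tumors, and the interaction had 1 call with a pseudocount of 0.1; the cause was not tested. None of these calls was a member. The interaction also had 2 calls without control crypts 1 and 2, where Cftr was at −0.2567 and Guca2b at 0.5074. Over interaction fits without 1 library each, Car4 ranged from −0.5808 to 0.0155, Slc26a3 from −0.6612 to 0.0432, Cftr from −0.1831 to 0.2083 and Guca2b from −0.196 to 0.3.

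The sample labels do not say whether replicate numbers pair the libraries. Deviations of same-numbered libraries correlated at 0.054, −0.090 and 0.053 in tumors and −0.047, −0.122 and 0.037 in crypts. With 3 libraries per group these values cannot exclude a pairing. With a replicate block there were 0 calls in tumors, 0 in crypts and 1 in the interaction. In tumors 6 members were then under an unadjusted p of 0.05, and of all 16743 genes 1160 were higher and 722 lower at that threshold. Replicate 3 was female in both tumor groups, so the block also took up sex there.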
